A study of Mus musculus with 4 samples.

Results

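The genes described here encode enzymes that make NADPH in the cytosol or form the pentose phosphate pathway. They were chosen by name: 8 genes were listed, and a gene was followed through the probe set that is annotated with its symbol alone, taking the brightest where there were several. Of the 8 listed genes, 6 had such a probe set (Pgls, Pgd, Rpia, Taldo1, Me1 and Idh1), out of 22180 genes with a probe set of 1 symbol, and all 6 were bright enough to be tested. The probe set of Tkt (transketolase) carries 2 symbols and is therefore not named, and G6pdx (glucose 6-phosphate dehydrogenase) was not analysed here. Pgls has a second, dimmer probe set.

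Expression was compared between dendritic cells given sulforaphane and cells given its solvent DMSO, with 2 arrays per group. Both groups were bone marrow-derived cells of C57BL/6 mice, taken on day 7 of culture, pretreated for 2 h with 0.3 µM sulforaphane dissolved in DMSO or with the solvent only, and then exposed to lipopolysaccharide (LPS), a bacterial activator of these cells, at 100 ng/ml for 1 h. The values are log2 RMA values, in which 1 unit is a doubling of the signal, and every difference is sulforaphane minus DMSO. The labels do not say whether replicates came from separate mice or cultures, so p-values measure only the spread between these arrays.

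NADPH supplies the electrons that reduce glutathione and thioredoxin, that drive fatty acid and sterol synthesis, and that the phagocyte oxidase turns into superoxide. The oxidative branch of the pentose phosphate pathway makes NADPH from glucose 6-phosphate and ends in ribulose 5-phosphate, and the non-oxidative branch exchanges pentose phosphates with glycolysis. Malic enzyme and the cytosolic isocitrate dehydrogenase make NADPH from malate and isocitrate. Sulforaphane, an isothiocyanate of cruciferous vegetables, activates the transcription factor NRF2, and several enzymes of this set are known NRF2 targets in mouse and human cells.

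The interquartile range of DMSO replicate 1 was 3.41, while the other 3 arrays lay between 3.61 and 3.62, and the array medians ran from 3.24 to 3.27. Markers of the labelled cell type were present, with Itgax (CD11c) between 11.26 and 11.33 and the MHC class II gene H2-Ab1 between 11.37 and 11.81. Others of the same list were dimmer, with Flt3 between 4.34 and 4.95 and Zbtb46 between 5.95 and 6.44. Markers of other myeloid cells were present as well. The 13 neutrophil markers averaged 9.32 to 9.44 in sulforaphane arrays and 9.23 to 9.47 in DMSO arrays, the 12 tested macrophage markers 9.27 in both sulforaphane arrays and 9.45 to 9.52 in DMSO arrays, and the 7 tested mast cell markers 6.84 to 6.96 in sulforaphane arrays and 7.08 to 7.12 in DMSO arrays. The 15 tested dendritic cell markers averaged 8.75 to 8.78 in sulforaphane arrays and 8.95 to 9.05 in DMSO arrays, with 8 below both DMSO arrays (19.5% of all genes tested were) and 3 above them (24.0% were). Of the macrophage markers, 6 lay below both DMSO arrays and 0 above them. Of the B cell markers, 4 of 7 were tested and averaged 3.16 to 3.60 in sulforaphane arrays and 3.66 to 3.70 in DMSO arrays, and of the T and NK cell markers 3 of 8 were tested, which averaged 3.29 to 3.32 in sulforaphane arrays and 3.37 to 3.39 in DMSO arrays. No erythroid marker passed the filter. The part of these markers in the differences of the enzymes was not tested, and fewer cells of a type cannot be told apart from less RNA per cell.

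None of the 6 enzymes passed the threshold, and most lay slightly higher after sulforaphane. Me1 and Taldo1 differed most, by 1.52-fold and 1.29-fold, Idh1, Pgd and Rpia by less, and Pgls lay lower. By limma with Benjamini-Hochberg adjustment over all genes tested, 0 of 6 enzymes had an adjusted p under 0.05, where 0.130% of the 14652 genes tested did (0.0614% higher and 0.0683% lower). At an unadjusted p under 0.05, 2 of 6 enzymes were higher, against 7.09% of all genes tested, and 0 were lower, against 5.87%. These counts depended on the settings. With the filter at the 60th percentile, 2 were higher and 1 lower (Pgls), where 1709 of 10584 genes had such a p in either direction. The same counts came with the medians of the tested genes set equal (1874 of 14652 genes) and with a second quantile normalization (1911 of 14648). Both sulforaphane arrays lay above both DMSO arrays for 4 of 6 enzymes, against 24.0% of all genes tested, and below them for 1, against 19.5%. In all, 5 of the 6 differences were above 0, against 54.2% of all genes tested. The median difference of the 6 enzymes was 0.18 (0.12 when DMSO replicate 1 was left out, 0.31 when DMSO replicate 2 was), and that of all genes tested was 0.018. With 2 arrays a group an exact permutation test cannot give a two-sided p below 0.333, so none is given for single genes.

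**Figure D1:**
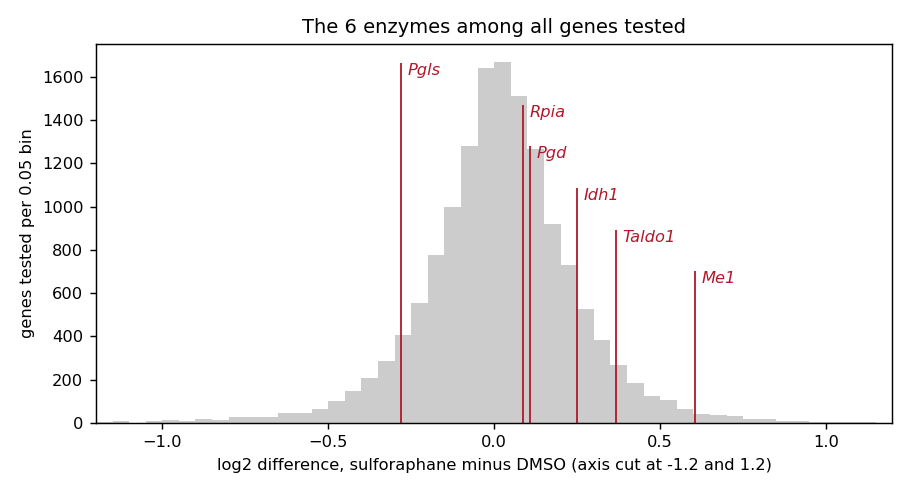
Histogram of the log2 difference (sulforaphane minus DMSO) of the 14652 genes tested, in bins of 0.05, with a red line at each of the 6 enzymes (line heights differ only to keep the names apart). Me1 lies above 98.8% of all genes tested, Taldo1 above 94.4% and Idh1 above 87.6%, while Pgd and Rpia lie in the body of the distribution and Pgls lies above 8.15%.

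In the oxidative branch, Pgls and Pgd were measured, and their differences had opposite signs. Pgls encodes the lactonase that opens the lactone made by glucose 6-phosphate dehydrogenase. Its log2 value was 6.46 and 6.64 in sulforaphane replicates 1 and 2, and 6.88 and 6.78 in DMSO replicates 1 and 2. Both sulforaphane arrays lay below both DMSO arrays, with a gap of 0.14 between the groups. The means were 6.55 ± 0.13 in sulforaphane arrays and 6.83 ± 0.072 in DMSO arrays (SD, n = 2 each). The difference was -0.28 ± 0.12 (SE; 95% interval -0.57 to 0.014; limma adjusted p = 0.405), so it did not pass. The second probe set of Pgls read 3.74 and 3.32 in sulforaphane arrays and 3.37 and 3.56 in DMSO arrays, with overlapping groups and a difference of 0.066 ± 0.17 (SE), the other sign. The mean of the 2 probe sets differed by -0.11.

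Pgd encodes phosphogluconate dehydrogenase, which makes the second NADPH of the branch and ribulose 5-phosphate. It read 11.58 and 11.62 in sulforaphane arrays and 11.54 and 11.44 in DMSO arrays. The groups did not overlap, but the gap of 0.042 between them was smaller than the 0.098 between the DMSO arrays. The difference was 0.11 ± 0.11 (SE; limma adjusted p = 0.750), and its 95% interval of -0.16 to 0.37 covers ratios from 0.90 to 1.30. When the medians of the tested genes were set equal, or after a second quantile normalization, the Pgd groups overlapped.

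In the non-oxidative branch, Taldo1 was higher in both sulforaphane arrays and Rpia was not separated. Taldo1 encodes transaldolase, which moves carbon units between sugar phosphates and so links the pathway back to glycolysis. It read 9.69 and 9.78 in sulforaphane arrays and 9.28 and 9.46 in DMSO arrays. The gap of 0.23 between the groups exceeded the 0.18 between the DMSO arrays and the 0.083 between the sulforaphane arrays. The means were 9.74 ± 0.058 in sulforaphane arrays and 9.37 ± 0.13 in DMSO arrays (SD, n = 2 each). The difference was 0.37 ± 0.12 (SE; 95% interval 0.076 to 0.66), or 1.29-fold, with an unadjusted limma p of 0.0215 and an adjusted p of 0.287.

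Rpia encodes the isomerase that turns ribulose 5-phosphate into ribose 5-phosphate, the precursor of nucleotides. It read 7.45 and 7.55 in sulforaphane arrays and 7.30 and 7.53 in DMSO arrays, and the groups overlapped. The difference was 0.086 ± 0.13 (SE; 95% interval -0.22 to 0.39; limma adjusted p = 0.843), and it was -0.027 without DMSO replicate 1.

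**Figure D2:**
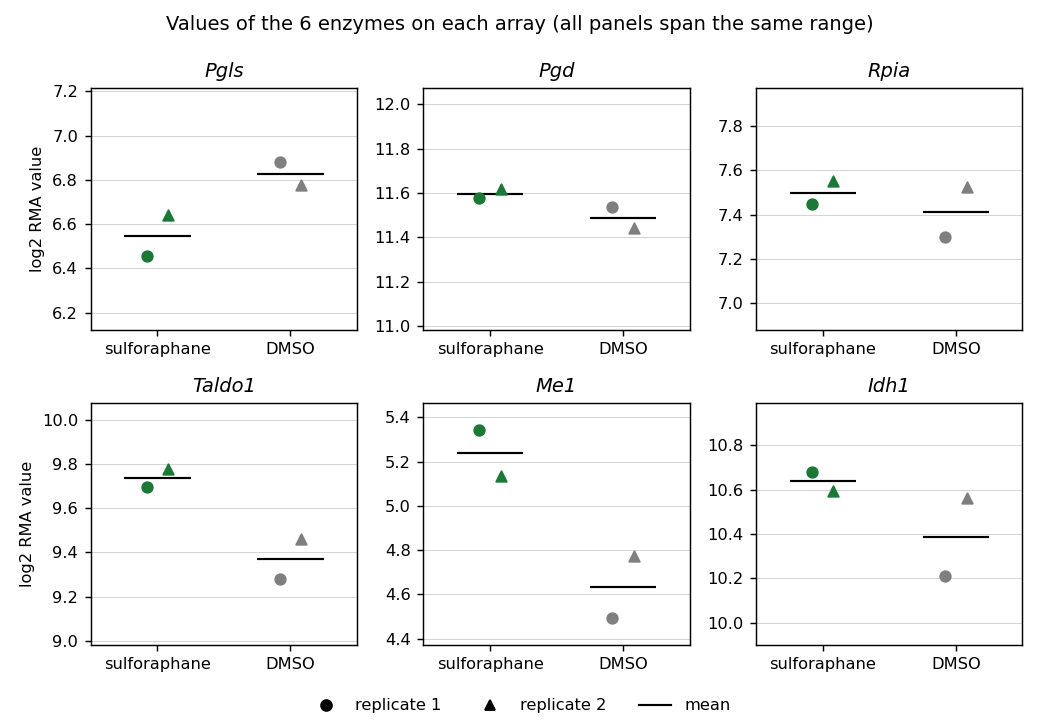
Log2 RMA values of the 6 enzymes, each panel with its own axis but the same span, sulforaphane left and DMSO right (circles replicate 1, triangles replicate 2, lines the mean of 2 arrays). The groups are separated for Pgls, Pgd, Taldo1, Me1 and Idh1 and overlap for Rpia, and DMSO replicate 1 is the lowest of the 4 arrays for Taldo1, Me1, Idh1 and Rpia.

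Of the enzymes outside the pathway, Me1 had the larger difference. Me1 encodes the cytosolic malic enzyme, which turns malate into pyruvate and makes NADPH. It read 5.34 and 5.13 in sulforaphane arrays and 4.49 and 4.77 in DMSO arrays. The gap of 0.36 between the groups exceeded the 0.28 between the DMSO arrays and the 0.21 between the sulforaphane arrays. The means were 5.24 ± 0.15 in sulforaphane arrays and 4.63 ± 0.20 in DMSO arrays (SD, n = 2 each). The difference was 0.60 ± 0.15 (SE; 95% interval 0.25 to 0.96), or 1.52-fold (1.19 to 1.94), with an unadjusted limma p of 0.00584 and an adjusted p of 0.188. Me1 was the 1 enzyme of the 6 that was at least 1.5-fold higher without overlap, against 1.32% of all genes tested.

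Idh1 encodes the isocitrate dehydrogenase of cytosol and peroxisomes, which makes NADPH and 2-oxoglutarate. It read 10.68 and 10.60 in sulforaphane arrays and 10.21 and 10.56 in DMSO arrays. The groups were separated by 0.034, while the DMSO arrays differed from each other by 0.35. The difference was 0.25 ± 0.15 (SE; 95% interval -0.11 to 0.61; limma adjusted p = 0.539). It was 0.076 without DMSO replicate 1 and 0.43 without DMSO replicate 2, so its size rested on which DMSO array was used.

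Promoter windows were searched for the core of the antioxidant response element, the DNA site that NRF2 binds with a small MAF partner. The windows of Me1 and Pgd are shown because they hold it, and that of Taldo1 as 1 that does not. The windows are RefSeq sequences of GRCm38.p6 from 250 bases before to 50 bases after a transcript start. A window was found for all 6 tested enzymes, with 9 windows since Pgd, Me1 and Idh1 have 2 starts each. The core TGACNNNGC was searched on both strands, and it was in 2 of the 9 windows and in 12.4% of all 32851 windows. The Me1 window is chr9:86695865-86696164 on the minus strand, and its match begins 6 bases before the start and also holds TGACTCA, the site of AP-1. The Pgd window is that of an alternative start, chr4:149166033-149166332 on the minus strand. Its match lies just inside the transcript, not upstream of the start. The windows of the other Pgd start (chr4:149166656-149166955) and of the other Me1 start (chr9:86687228-86687527) have no match. The Taldo1 window, chr7:141391910-141392209 on the plus strand, has no match. Capitals mark the core.
Me1: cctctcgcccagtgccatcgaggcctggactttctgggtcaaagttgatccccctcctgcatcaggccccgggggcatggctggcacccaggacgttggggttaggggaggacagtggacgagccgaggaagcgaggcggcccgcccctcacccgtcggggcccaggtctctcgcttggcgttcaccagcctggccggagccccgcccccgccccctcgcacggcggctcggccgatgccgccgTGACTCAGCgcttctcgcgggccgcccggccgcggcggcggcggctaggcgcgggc
Pgd: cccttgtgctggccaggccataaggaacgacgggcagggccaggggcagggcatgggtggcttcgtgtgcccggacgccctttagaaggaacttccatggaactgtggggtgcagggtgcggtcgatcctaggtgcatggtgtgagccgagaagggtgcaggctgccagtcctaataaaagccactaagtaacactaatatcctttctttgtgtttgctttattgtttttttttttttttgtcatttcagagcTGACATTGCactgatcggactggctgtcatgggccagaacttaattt
Taldo1: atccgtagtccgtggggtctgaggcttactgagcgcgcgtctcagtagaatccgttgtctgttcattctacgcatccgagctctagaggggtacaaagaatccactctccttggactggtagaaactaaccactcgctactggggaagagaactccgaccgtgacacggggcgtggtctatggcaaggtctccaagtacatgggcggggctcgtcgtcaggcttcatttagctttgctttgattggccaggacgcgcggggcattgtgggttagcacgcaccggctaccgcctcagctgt
A match describes the letters of the window only, and 1 window with a match belongs to Me1 and the other to Pgd, whose differences were 0.60 and 0.11.

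DMSO replicate 1 was the lowest array for 4 of the 6 enzymes and for 36.7% of all genes tested. Without it, the difference was 0.46 for Me1, 0.28 for Taldo1, 0.16 for Pgd and -0.23 for Pgls. Without DMSO replicate 2, it was 0.74 for Me1, 0.46 for Taldo1, 0.060 for Pgd and -0.33 for Pgls. Leaving out a sulforaphane array gave 0.50 and 0.71 for Me1, 0.41 and 0.32 for Taldo1, and -0.19 and -0.37 for Pgls (without replicate 1 and without replicate 2).

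**Figure D3:**
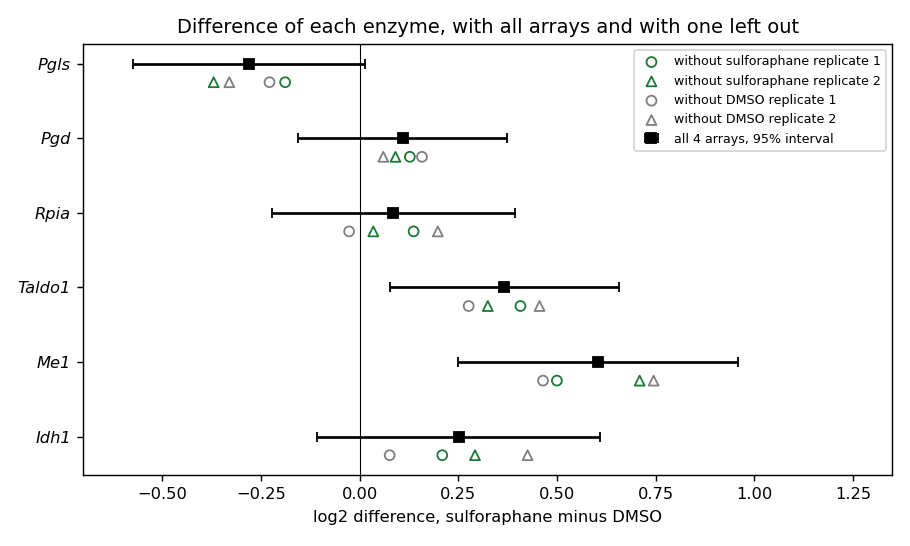
Log2 difference (sulforaphane minus DMSO) of each enzyme with all 4 arrays (squares, 95% interval of the limma fit) and with 1 array left out (open symbols). The intervals of Me1 and Taldo1 lie above 0 before adjustment, those of the other 4 enzymes include 0, and only Rpia turns its sign when an array is left out.

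Among themselves, Taldo1 and Idh1 had the most similar patterns over the 4 arrays (Euclidean distance of the centred log2 values 0.20), and Me1 and Pgls the least similar (0.96). The genes outside the set whose 4 centred values came nearest to the mean profile of the enzymes were Cfl2 (distance 0.0085), Vwa8 (0.011), Vps11 (0.013), Ptpn21 (0.013) and Ube2s (0.014). Their differences ran from 0.18 to 0.19, next to 0.19 for the mean profile, a likeness over 4 arrays that serves only as a description.

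The other enzymes of the pentose phosphate pathway and of ribose metabolism gave 0 of 8 tested genes past the threshold, with 5 above 0, 3 below and a median of 0.078 that was 0.024 without DMSO replicate 1 and 0.016 with the medians of the tested genes set equal. Shpk encodes sedoheptulokinase, which feeds the non-oxidative branch. It read 6.32 and 6.16 in sulforaphane arrays and 5.85 and 5.68 in DMSO arrays, a difference of 0.47 ± 0.12 (SE; limma adjusted p = 0.205). H6pd, the relative of glucose 6-phosphate dehydrogenase in the endoplasmic reticulum, read 7.48 and 7.54 in sulforaphane arrays and 7.07 and 7.18 in DMSO arrays, a difference of 0.38 ± 0.11 (SE; limma adjusted p = 0.248). Neither gene's groups overlapped, and no array left out took their differences outside 0.39 to 0.56 for Shpk and 0.33 to 0.44 for H6pd. The ribokinase gene Rbks (0.13, and 0.060 without sulforaphane replicate 1) did not pass either. G6pd2, a retrogene of G6pdx, was dim, between 3.40 and 3.72 on the 4 arrays. It did not pass (-0.14, and -0.043 when DMSO replicate 2 was left out). The transketolase-like genes Tktl1 and Tktl2 were too dim to be tested.

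Of 12 other genes that make NADPH or NADP, 0 passed the threshold, with 7 above 0 and 5 below. Their median of 0.080 was -0.028 without DMSO replicate 1, 0.12 without DMSO replicate 2 and -0.00046 after a second quantile normalization. Nadk2, the mitochondrial NAD kinase, read 7.03 and 6.74 in sulforaphane arrays and 5.83 and 6.57 in DMSO arrays. Its difference was 0.68 ± 0.25 (SE; limma adjusted p = 0.344), but leaving out DMSO replicate 1 gave 0.31 and leaving out DMSO replicate 2 gave 1.05. The relatives of the 2 enzymes outside the pathway did not pass: Idh2, the mitochondrial isocitrate dehydrogenase, differed by -0.035 (SE 0.10), and the mitochondrial malic enzymes Me2 and Me3 by 0.18 (SE 0.16) and -0.34 (SE 0.19). Idh2 lay between 9.11 and 9.17 on all 4 arrays. Me2 was -0.027 without DMSO replicate 1, and Me3, close to the filter, was -0.61 and -0.075 without sulforaphane replicates 1 and 2. Aldh1l2, a mitochondrial folate enzyme that makes NADPH (0.17, and 0.077 without DMSO replicate 1), and Glud1, glutamate dehydrogenase (0.12, and 0.074 without sulforaphane replicate 1), did not pass. Aldh1l2 was dim, between 3.31 and 3.60.

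**Figure D4:**
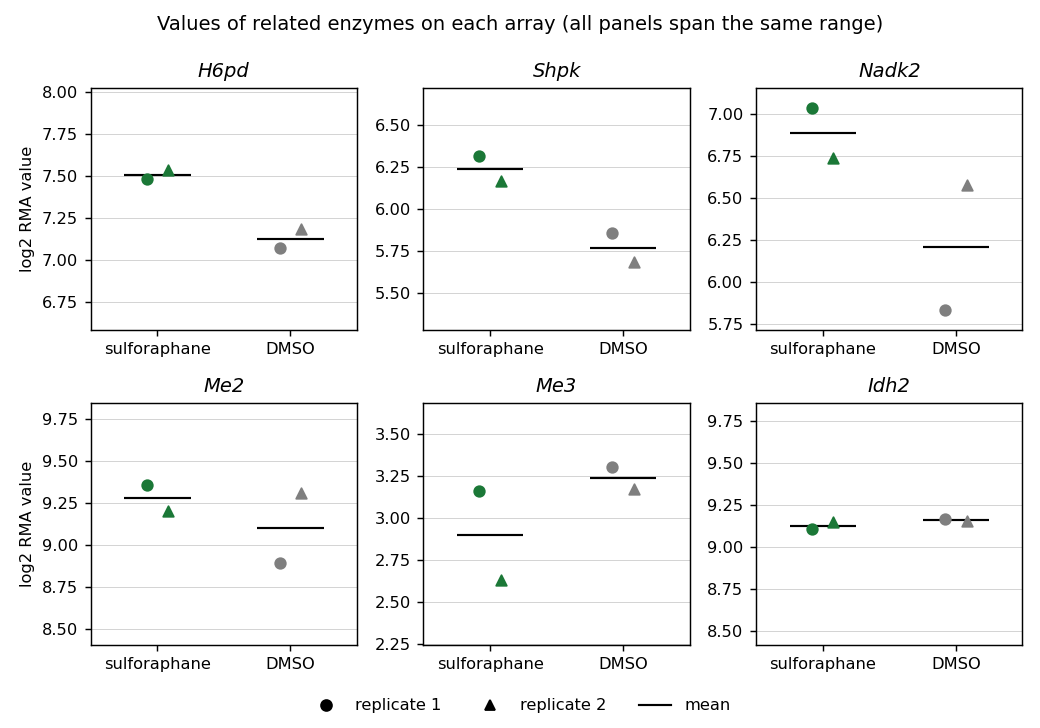
Log2 RMA values of 6 related enzymes, panels with their own axes but the same span, sulforaphane left and DMSO right (circles replicate 1, triangles replicate 2, lines the mean of 2 arrays). H6pd and Shpk are separated with close replicates, the DMSO arrays of Nadk2 and Me2 lie far apart, and Idh2 is level.

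The reductases of redox defence that spend NADPH had a median difference of 0.22. It was 0.37 without sulforaphane replicate 2 and 0.16 with the medians of the tested genes set equal. Of 11 tested, 10 lay above 0, where 54.2% of all genes tested did, and 0 passed the threshold with the main settings. At an unadjusted p under 0.05, 5 were higher, against 7.09% of all genes tested, and 0 lower, against 5.87%. Cbr3, a carbonyl reductase, read 7.45 and 7.25 in sulforaphane arrays and 5.10 and 5.88 in DMSO arrays, a difference of 1.87 ± 0.25 (SE; limma adjusted p = 0.0592). Ptgr1, a prostaglandin reductase, differed by 0.93 ± 0.13 (SE; limma adjusted p = 0.0643), Nqo1, the quinone reductase, by 0.90 ± 0.12 and Txnrd1, thioredoxin reductase, by 0.52 ± 0.11. Of the 14 alternative settings, Cbr3 and Nqo1 each passed the threshold in 4, Ptgr1 in 3 and Txnrd1 in 1.

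NRF2 targets outside the set gave 1 of 16 tested genes past the threshold, Osgin1, an oxidative stress-induced growth inhibitor, which rose by 1.57 ± 0.13 (SE; limma adjusted p = 0.0322). It had no call when any array was left out, as no tested gene had, and its difference then lay between 1.45 and 1.69. The list median was 0.55, with 14 of 16 above 0, and 4 of its names are also among the reductases. This list and that of the reductases were made with earlier results of these data known, so their directions are not independent evidence.

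The other users of NADPH and the pathways around the enzymes had 0 genes past the threshold with the main settings. Of 7 tested genes of the phagocyte NADPH oxidase and inducible NO synthase, 3 lay above 0 and 4 below, with differences from -0.13 (Ncf4) to 0.12 (Cyba), and Ncf1 (-0.11) and Rac1 (0.098) between them. With the medians of the tested genes set equal, Cyba was 0.058 and Ncf1 -0.17, and after a second quantile normalization Rac1 was 0.035. Their median of -0.088 became 0.051 without DMSO replicate 1. Of 9 enzymes of fatty acid, sphingolipid and sterol synthesis, 6 lay above 0 and 3 below. Their median of 0.041 was -0.10 without DMSO replicate 1, 0.15 without DMSO replicate 2 and -0.021 with the medians of the tested genes set equal. Sqle, squalene epoxidase, differed by -0.33 ± 0.11 (SE), Kdsr, of sphingolipid synthesis, by 0.56 ± 0.20 (0.29 without DMSO replicate 1), and the sterol synthesis genes Fdft1 by -0.23 (-0.36 and -0.11 without sulforaphane replicates 1 and 2) and Tm7sf2 by 0.17 (0.084 after a second quantile normalization).

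Of 14 tested genes from ribose 5-phosphate to nucleotides, 5 lay above 0 and 9 below. Their median of -0.044 was 0.0012 without sulforaphane replicate 1 and -0.13 without sulforaphane replicate 2. Among them were Umps, of pyrimidine synthesis (-0.34), Prpsap2, a partner of the PRPP synthetases (0.27, and 0.14 without DMSO replicate 2), and the purine synthesis genes Gart (-0.20, and -0.39 with its probe sets averaged) and Paics (0.19). Of 15 tested genes of glucose uptake and glycolysis, 7 lay above 0 and 8 below (median -0.076, and -0.032 without DMSO replicate 1). On both sulforaphane arrays, 7 lay below both DMSO arrays, against 19.5% of all genes tested, and 0 above them, against 24.0%. Hk2, the hexokinase that makes glucose 6-phosphate, read 8.45 and 8.58 in sulforaphane arrays and 9.06 and 9.36 in DMSO arrays, a difference of -0.69 ± 0.14 (SE; limma adjusted p = 0.142). Hk2 passed the threshold in 2 of the 14 alternative settings. Pfkl, a phosphofructokinase (-0.22), Slc2a1, the glucose transporter GLUT1 (-0.21), and Pfkfb4, a regulatory enzyme of glycolysis (-0.21), were all lower on both sulforaphane arrays without passing. Of 14 tested genes of citrate and malate metabolism around Idh1 and Me1, 6 lay above 0 and 8 below. Their median of -0.011 was 0.030 without sulforaphane replicate 2 and 0.040 without DMSO replicate 2. Their differences ran from -0.16 (Idh3a) to 0.20 (Idh3g), with Got1 at 0.18 and Slc25a10 at -0.13. Without DMSO replicate 1, Idh3g was 0.0012 and Got1 0.078. Idh3a was -0.077 without sulforaphane replicate 2, and Slc25a10 was -0.070 without sulforaphane replicate 1.

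**Figure D5:**
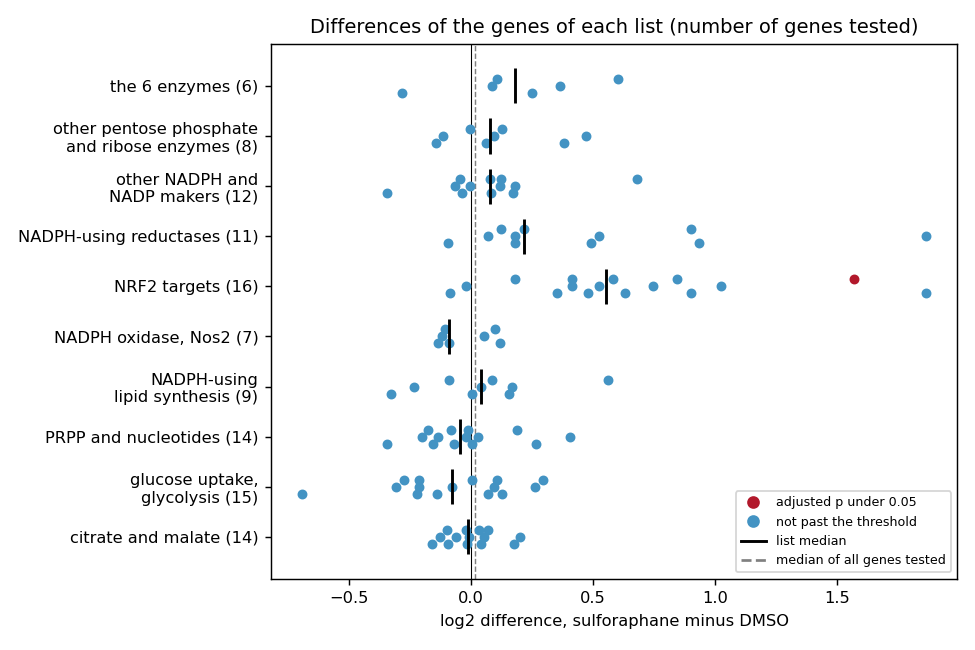
Log2 difference (sulforaphane minus DMSO) of every tested gene of each list, 1 point a gene, with the list median as a black bar and the median of all genes tested (0.018) as a dashed line. Osgin1, among the NRF2 targets, is the 1 gene past the threshold, and the median of the 6 enzymes (0.18) lies between those of the NRF2 targets (0.55) and of the citrate and malate genes (-0.011).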

How the data were processed

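Biotin-labelled cRNA of 4 samples was hybridised to Affymetrix arrays, per the labels' protocols. The authors deposited log2 values, for which the submitters' processing notes name RMA and R 2.15.1. No header states the log base, which was taken as 2 because RMA works on that scale and the values span 1.24 to 13.05. The filters, summarization level and genome build were not given in the sources used here. Of 41345 probe sets, 23521 have 1 symbol in a platform annotation and 1814 have several. A gene was tested where its mean exceeded 2.91, the 40th percentile over probe sets, which left 14652 genes, fitted with limma 3.58.1 in R 4.3.3 (lmFit and eBayes, no replicate block, 2 residual and 4.02 prior degrees of freedom). P-values were Benjamini-Hochberg adjusted over all genes tested, with a threshold of 0.05, and the procedure was tested on simulated data. The number of arrays limits the precision.

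The enzymes and lists were chosen with earlier results of these data known. By rule, the text names every enzyme, each list's genes past the threshold and otherwise up to 4 with the smallest unadjusted p, and relatives of the enzymes. The alternatives were other filters, scalings, choices of probe set and eBayes settings, a replicate block and each array left out. Replicate numbers do not pair the samples by the labels.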

Additional observations from a re-analysis of the deposited data

How the results depend on the processing

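With each of the 14 alternatives, 0 of the 6 enzymes passed the threshold and the signs of Pgd, Taldo1, Me1, Idh1 and Pgls held (Pgls at -0.11 with its probe sets averaged), while Rpia ran from -0.027 without DMSO replicate 1 to 0.20 without DMSO replicate 2. The lowest adjusted p over the alternatives was 0.114 for Me1 and 0.123 for Taldo1. Over all genes, 19 passed (9 higher, 10 lower), against 138 with the filter at the 60th percentile (57 higher, 81 lower), 143 with the medians of the tested genes set equal (41 and 102; a choice made after seeing the data), 106 with a second quantile normalization (34 and 72), 34 when a gene's probe sets were averaged (11 and 23), 249 with an intensity trend (96 and 153), 8 with the replicate block (4 and 4), and 0 with any array left out, when between 1032 and 2814 had an unadjusted p under 0.05. In the lists around the enzymes, 1 gene passed, against 6, 6, 4, 2 and 11 under the first 5 of these settings, 1 with the block and 0 with any array left out. The replicate block left the 6 enzymes without a call. Over genes, the deviations of same-numbered arrays correlated at -0.081. With 4 arrays this value cannot settle whether the samples were paired, and the labels state no pairing. The precision is limited by 2 arrays a group: the 95% intervals of the enzymes reach from 0.67 (Pgls) to 1.94 (Me1) as ratios.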
